A study of Mus musculus with 8 samples.

Results

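Amino acids enter and leave liver cells through several families of membrane carriers, and 43 genes of 6 such families (Slc1a, Slc3a, Slc7a, Slc36a, Slc38a and Slc43a) were examined here in the liver of mice lacking Abhd15. They are all genes whose symbol begins with one of these family names and that have an array cluster with exactly 1 gene symbol, apart from Slc7a11, which was left out, and they are taken from 22180 genes with such a cluster. The rule goes by symbol, and where a gene has several clusters, the one with the highest mean over all 8 arrays stands for it. Of the 43, 41 encode carriers or their subunits. The other two were caught by name only. Slc7a6os encodes a protein that is not a carrier, and Slc36a1os is a long noncoding RNA.

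The animals were male C57BL/6J mice fed normal chow, and livers of 3 wild-type (WT) and 5 Abhd15 knockout (KO) samples were profiled. The design text gives an age of 14 weeks, an overnight fast and 1 hour of refeeding on chow before the tissue was frozen. In the sample labels the chow feeding lasted up to 14 weeks. The Abhd15 protein belongs to the alpha/beta hydrolases and has been studied mainly in fat cells. The sources used here say neither how the knockout was made nor which animal gave which sample. RNA of each sample was hybridised to its own Mouse Gene 2.0 ST array, and expression is given on the log2 scale for each transcript cluster, a group of probes read together. The platform annotation names 1 gene for many clusters, several genes for some, and does not list others.

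The families divide the work by substrate and driving force. Slc1a carriers take up glutamate and aspartate or, in the case of Slc1a4 and Slc1a5, small neutral amino acids. Slc3a genes encode heavy chains that hold Slc7a light chains in the membrane as exchangers, while the remaining Slc7a members include the cationic amino acid transporters. Some Slc36a carriers are coupled to protons, and Slc38a carriers, many of them coupled to sodium, move glutamine, alanine and other neutral amino acids. Slc43a1 and Slc43a2 carry large neutral amino acids without an ion, and Slc43a3 is known as a nucleobase carrier. In liver, these proteins deliver amino acids for urea, glucose and protein synthesis, and the sodium-coupled uptake of alanine is known to be stimulated by glucagon and by amino acid shortage.

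Array medians lay between 2.99 and 3.05 over 41345 clusters. KO arrays 1 and 2 stood apart from the rest on the first principal component of the single-symbol clusters (22.1% of the variance), where they scored 35.7 and 32.1 and the array after them 0.661. On the second component (15.79%) KO array 4 was separate, at 41.8 with the next at 4.16, and on the third (13.8%) KO array 5 had 32.4 and the next 14.8. Abhd15 read 5.65, 5.81 and 5.46 in WT and 5.14, 5.04, 5.21, 5.18 and 5.04 in KO. All KO arrays lay below all WT arrays, and the difference was -0.52 (SE 0.129, limma adjusted p = 0.795). Its exact two-sided permutation p was 0.0179, the smallest that the 56 splits of the arrays can give. A second, dim Abhd15 cluster read 4.11, 4.36 and 3.07 in WT and 2.55, 3.05, 3.03, 3.33 and 3.84 in KO, with overlap (-0.68, SE 0.323, exact permutation p = 0.161). The position of the Abhd15 probes relative to the change in the knockout allele is unknown here, so the signal left in KO arrays cannot be read as remaining transcript. The 7 hepatocyte markers had means between 11.13 and 11.42 per array, whereas all measured markers of B cells, T and NK cells, neutrophils, adipocytes, exocrine pancreas and skeletal muscle had means below 4. So did 4 of the 5 measured cholangiocyte markers and 6 of the 7 of kidney and intestine epithelium, but not the remaining marker of each list.

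None of the 43 passed an adjusted p of 0.05 in the limma fit over all 23521 single-symbol clusters, of which 0 (0%) passed and 1429 had an unadjusted p under 0.05. The smallest adjusted p of a member was 0.795. In the KO mean 27 members (62.8%) read higher and 16 lower, where 49.2% of all 22180 genes read higher. The median log2 difference was 0.06 against -0.003 over all 22180 genes. At an unadjusted p under 0.05 there were 2 members, both lower in KO, or 4.65% of the 43, where 6.08% of all clusters reached it in either direction and 3.32% as lower. The same 2 members, Slc38a6 and Slc1a2, were the ones whose groups did not overlap, against 4.43% of all clusters in either direction and 2.44% with KO below WT. Over the 43 members, the shares at the unadjusted level and without overlap lie near the background. They are no result about the families as a whole, for which no group test was made. Without KO arrays 1 and 2 the median was 0.01, with 23 members higher and 20 lower, and 4 members reached the unadjusted level against 5.98% of all clusters.

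How far each gene can be read depends on its signal. A cluster's intensity depends on its probes, so levels are not ranked between genes here, but 17 members had a mean log2 value of at least 5 and 26 had one between 1.73 and 4.33, near the array medians, so that their signal may be background. Among the 17 brighter genes, 9 (52.9%) read higher and 8 lower, with a median log2 difference of 0.01. Over all 7478 genes with a mean of at least 5, 39.8% read higher, and the median was -0.04. Among the 26 dimmer genes, 18 (69.2%) read higher and 8 lower (median 0.08), against 49.2% higher among all genes of any signal. Counted by array, members above the WT range numbered 17 in KO array 1, 14 in KO array 2, 16 in KO array 3 and 9 each in KO arrays 4 and 5. Those below it numbered 10, 13, 7, 17 and 13 in the same order. Over all genes, 24.1 to 26.7% lay above and 25.4 to 31.4% below the WT range per KO array. In bulk liver, fewer cells of a type and less RNA per cell cannot be told apart. The plot of all 43 differences shows the intervals by family.

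**Figure D1:**
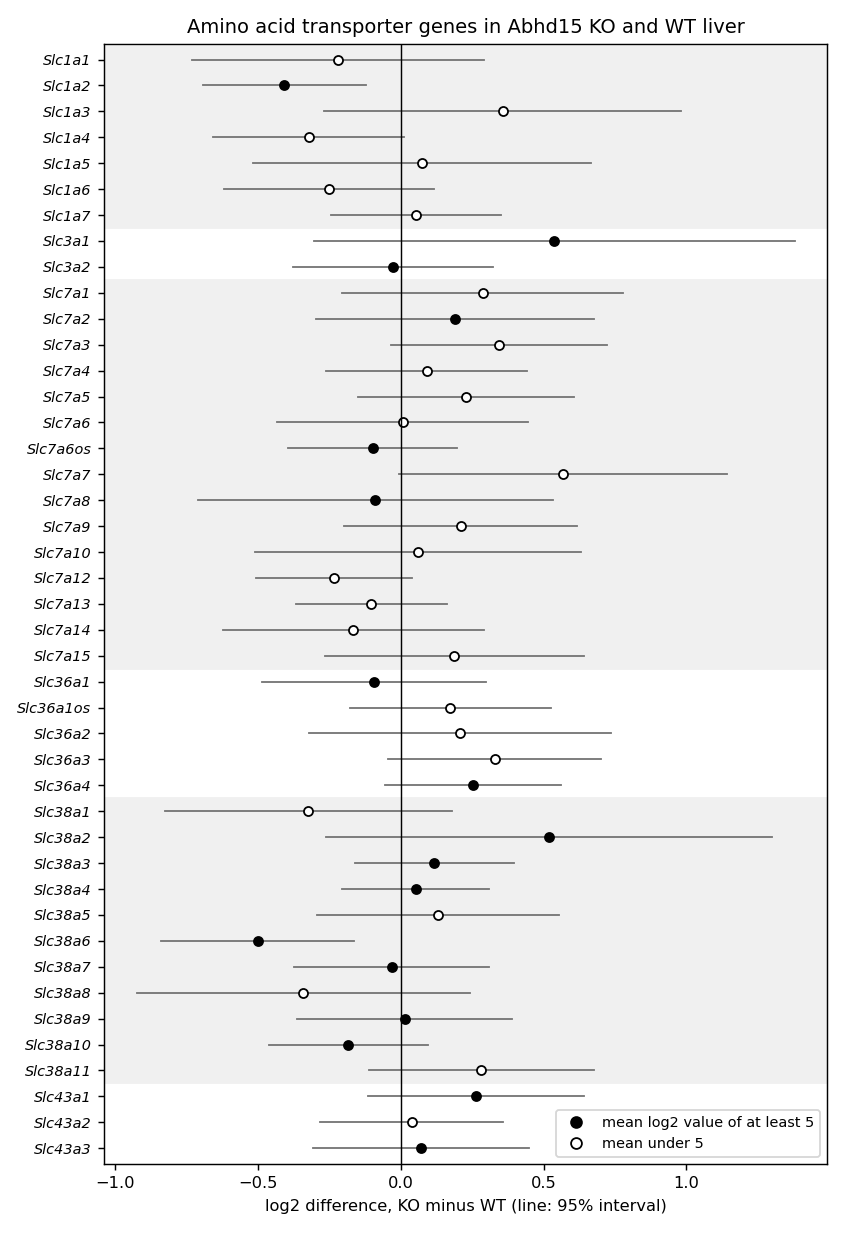
Log2 difference (KO minus WT, x axis) of each of the 43 genes (y axis, by family), with lines for the 95% interval from limma and filled points for genes with a mean log2 value of at least 5. The intervals of Slc1a2 and Slc38a6 lie below 0, and those of the other 41 include 0.

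Because Slc38a6 and Slc1a2 had the smallest p among genes lower in KO, and Slc38a2 and Slc3a1 the widest spread between KO arrays of the 43, their promoters are shown. The 300 bases run from 250 before to 50 after the annotated start, 5′ to 3′ on the gene's strand, from RefSeq's GRCm38.p6 annotation. Capitals mark matches, on either strand, to the cAMP response element TGACGTCA, the AP-1 site TGAGTCA, the amino acid response element TGATGNAA or the FOXO site GTAAACA, none of which overlapped another. The windows lie at chr12:73286598-73286897 (plus strand), chr2:102706188-102706487 (plus), chr15:96699679-96699978 (minus) and chr17:85028097-85028396 (plus).
Slc38a6: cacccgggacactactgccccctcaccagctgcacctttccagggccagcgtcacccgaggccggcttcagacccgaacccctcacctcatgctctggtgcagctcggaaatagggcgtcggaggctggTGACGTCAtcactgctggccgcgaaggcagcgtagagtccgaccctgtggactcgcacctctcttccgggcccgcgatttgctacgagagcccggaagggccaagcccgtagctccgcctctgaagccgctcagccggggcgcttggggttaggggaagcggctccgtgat
Slc1a2: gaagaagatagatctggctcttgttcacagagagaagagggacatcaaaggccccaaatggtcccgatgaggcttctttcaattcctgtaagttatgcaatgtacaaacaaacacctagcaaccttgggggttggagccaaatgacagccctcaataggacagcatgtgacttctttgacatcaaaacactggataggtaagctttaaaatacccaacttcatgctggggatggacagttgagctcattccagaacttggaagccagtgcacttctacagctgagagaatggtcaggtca
Slc38a2: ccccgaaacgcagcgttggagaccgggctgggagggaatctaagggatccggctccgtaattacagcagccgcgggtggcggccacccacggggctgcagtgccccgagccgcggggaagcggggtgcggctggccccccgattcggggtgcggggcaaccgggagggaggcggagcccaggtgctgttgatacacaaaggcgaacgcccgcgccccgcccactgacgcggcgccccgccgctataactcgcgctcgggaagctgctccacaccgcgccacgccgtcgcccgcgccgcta
Slc3a1: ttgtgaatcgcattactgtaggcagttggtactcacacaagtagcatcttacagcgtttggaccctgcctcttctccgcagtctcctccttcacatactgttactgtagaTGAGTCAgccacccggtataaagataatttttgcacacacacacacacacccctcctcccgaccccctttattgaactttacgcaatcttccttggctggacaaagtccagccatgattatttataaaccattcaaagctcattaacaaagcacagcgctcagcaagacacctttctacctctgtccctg
The Slc38a6 window holds a full cAMP response element, whose first base lies 121 bases before the start, and 1.79% of all 32851 promoter windows hold one. In the Slc3a1 window an AP-1 site begins 140 bases before the start, as found in 5.20% of windows. The windows of Slc1a2 and Slc38a2 hold none of the 4 motifs, and sequence outside these 300 bases, introns included, was not searched. Of the 32 members with a window, 1 has a cAMP response element, 2 an AP-1 site (Slc3a1 and Slc7a1), 2 an amino acid response element (Slc1a4 and Slc7a7; 3.97% of windows) and 1 a FOXO site (Slc36a3; 3.65% of windows). Counted by gene, over 27025 genes with a window, the shares for these motifs are 2.03, 5.95, 4.51 and 4.05% in the same order. A match is a run of letters in this window and is not shown to be bound.

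Among the glutamate and aspartate carriers, Slc1a2 was the gene with a clear signal. It encodes GLT-1, which in rodent liver is known from the hepatocytes around the central vein that also make glutamine. Slc1a2 read 6.87, 6.74 and 6.82 in WT and 6.31, 6.65, 6.38, 6.34 and 6.34 in KO. Every KO array lay below every WT array, with KO array 2 closest to WT. The means were 6.81 ± 0.0644 (SD, n = 3) and 6.40 ± 0.138 (SD, n = 5), a log2 difference of -0.41 (95% interval -0.69 to -0.12), or 1.33-fold lower. The exact permutation p was 0.0179, and the limma p was 0.00954 unadjusted and 0.795 adjusted. Leaving out any 1 array kept the difference between -0.47 and -0.38, and it was -0.46 without KO arrays 1 and 2. The other 4 glutamate carriers had means under 5. Slc1a6, known from cerebellum, read 2.42, 2.11 and 2.45 in WT and 2.44, 1.89, 2.19, 1.87 and 1.98 in KO, with overlap (-0.25, SE 0.166). Slc1a1, the widely expressed carrier, had a difference of -0.22 (SE 0.231), Slc1a3, a carrier of glial cells, one of 0.36 (SE 0.283) and Slc1a7, known from retina, one of 0.05 (SE 0.134).

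Genes that share the central zone of the lobule with Slc1a2 were read beside it. Of 11 listed genes known from that zone, among them genes of glutamine and ornithine metabolism, cytochromes P450 and Wnt targets, 10 were measured, with 3 higher, 7 lower and a median log2 difference of -0.25. None passed the adjusted threshold or an unadjusted p of 0.05. The smallest p belonged to Lgr5, a Wnt target receptor (-0.52, SE 0.254), Cyp1a2, a cytochrome P450 (-0.30, SE 0.155), and Oat, ornithine aminotransferase (-0.27, SE 0.142). Glul, glutamine synthetase, named after its values were seen, read 10.65, 10.74 and 11.00 in WT and 10.27, 10.28, 10.86, 10.50 and 10.54 in KO (-0.30, SE 0.165). KO arrays 1 and 2 were its lowest, and without them the list's median was -0.07. Of 14 listed genes of amino acid breakdown in the portal zone 10 were measured, with 7 higher, 3 lower, a median of 0.10 and none at an unadjusted p of 0.05. Their smallest p belonged to Hal, histidine ammonia-lyase (0.33, SE 0.151), Asl, argininosuccinate lyase (0.25, SE 0.139), and Tat, tyrosine aminotransferase (0.21, SE 0.12).

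Both neutral carriers of the same family were dim. Slc1a4, which carries serine, alanine and other small amino acids, read 4.08, 4.33 and 3.71 in WT and 3.68, 3.68, 3.73, 3.83 and 3.68 in KO. The KO arrays lay close together, at or below the WT arrays except that KO arrays 3 and 4 lay above WT array 3. Its log2 difference was -0.32 (SE 0.151, limma adjusted p = 0.838), and -0.18 without WT array 2 and -0.48 without WT array 3. Slc1a5, a glutamine exchanger, read 3.22, 3.45 and 3.91 in WT and 3.95, 2.95, 3.33, 3.64 and 4.15 in KO, with the groups overlapping throughout (0.07, SE 0.267). Its other cluster had a difference of 0.04 (SE 0.21).

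Slc38a6, a member of the sodium-coupled neutral amino acid family that is less well understood than its relatives, had the smallest p of the 43. It read 5.51, 5.54 and 5.52 in WT and 5.02, 4.71, 5.18, 5.31 and 4.90 in KO. The WT arrays were nearly level, and all KO arrays lay below them and spread more widely. The means were 5.52 ± 0.0171 (SD, n = 3) and 5.02 ± 0.234 (SD, n = 5), a log2 difference of -0.50 (95% interval -0.84 to -0.16), or 1.41-fold lower. Its exact permutation p was 0.0357, and the limma p was 0.00783 unadjusted and 0.795 adjusted. Omitting single arrays gave differences between -0.57 and -0.42, and the value without KO arrays 1 and 2 was -0.40.

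**Figure D2:**
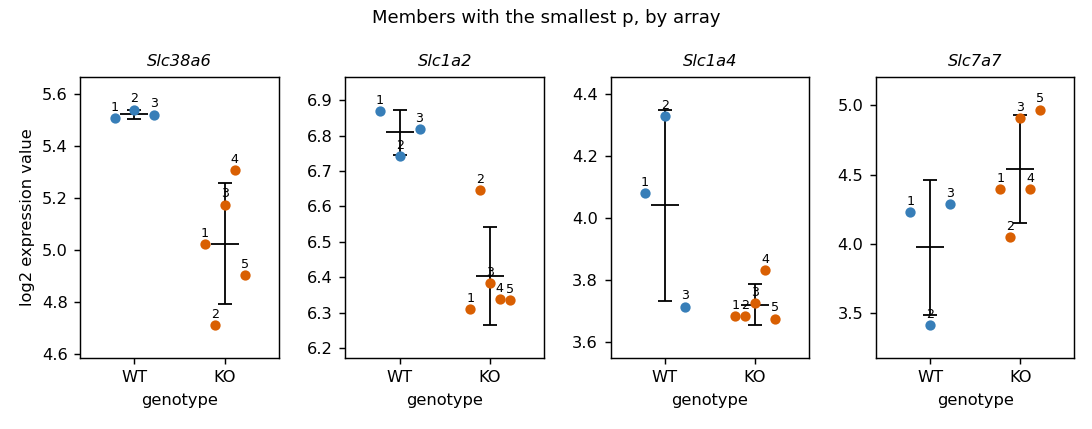
Log2 expression values (y axis, a separate range for each gene) of Slc38a6, Slc1a2, Slc1a4 and Slc7a7 by genotype (x axis), 1 numbered point per array, with bars for the mean and SD of 3 WT and 5 KO arrays. KO points lie below all WT points for Slc38a6 and Slc1a2, and the groups overlap for Slc1a4 and Slc7a7.

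The carriers through which hepatocytes are known to take up much glutamine and alanine showed small differences with narrow intervals. Slc38a3, a sodium-coupled glutamine carrier with high activity in hepatocytes, read 11.22, 11.25 and 11.28 in WT and 11.52, 11.47, 11.38, 11.20 and 11.28 in KO. KO arrays 1 to 3 lay above WT, while KO arrays 4 and 5 did not. The log2 difference was 0.12 (95% interval -0.16 to 0.40). Slc38a4, a liver-enriched and imprinted carrier of neutral amino acids, read 11.37, 11.48 and 11.47 in WT and 11.58, 11.54, 11.49, 11.40 and 11.47 in KO, a difference of 0.05 (95% interval -0.20 to 0.31). Its KO SD of 0.0698 was exceeded or equalled by that of 97.9% of single-symbol clusters, so that its signal was among the steadiest on these arrays.

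Slc38a2, by contrast, differed among the KO livers. It encodes the inducible alanine and glutamine carrier SNAT2, whose gene is a known ATF4 target. It read 7.58, 7.89 and 7.74 in WT, 9.23 and 8.86 in KO arrays 1 and 2, and 7.81, 7.71 and 7.66 in the other KO arrays. The last 3 KO arrays lay within the WT range, and the first 2 lay about 1 log2 unit or more above every other array. Between the groups the log2 difference was 0.52 (95% interval -0.26 to 1.30, exact permutation p = 0.304), and without KO arrays 1 and 2 it was -0.01. The KO SD of 0.736 was reached by 1.13% of single-symbol clusters.

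Slc3a1 had the same arrays on top. It encodes rBAT, the heavy chain known from cystine and dibasic amino acid uptake in kidney and intestine. Slc3a1 read 7.93, 7.95 and 8.61 in WT and 9.58, 9.42, 8.03, 7.996 and 8.47 in KO. KO arrays 1 and 2 lay above all others, and KO arrays 3 to 5 lay within the WT range. Its log2 difference was 0.54 (95% interval -0.30 to 1.38, exact permutation p = 0.304) and 0.00 without KO arrays 1 and 2. Its KO SD of 0.758 was reached by 0.944% of single-symbol clusters. The light chain that pairs with it in kidney, Slc7a9, was dim at 2.11, 2.62 and 2.01 in WT and 2.31, 2.36, 2.72, 2.69 and 2.21 in KO. Its groups overlapped, and KO arrays 1 and 2 were not its highest (0.21, SE 0.184). Slc7a13, another light chain known to pair with Slc3a1 in mouse kidney, was also dim, with a log2 difference of -0.10 (SE 0.119).

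**Figure D3:**
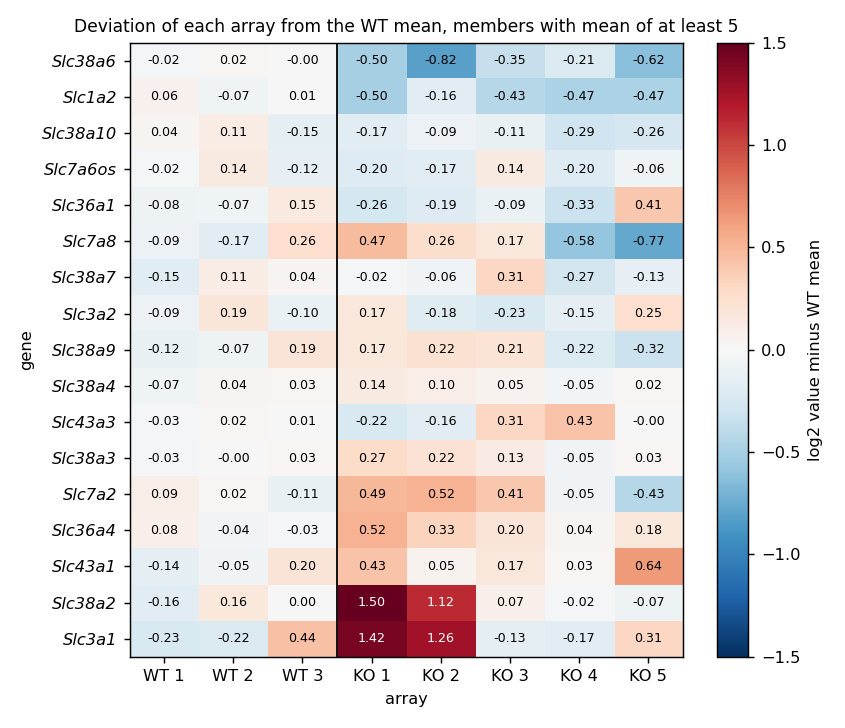
Deviation of each array (x axis) from the WT mean, on the log2 scale, for the 17 members with a mean of at least 5 (y axis, ordered by KO minus WT difference). Slc38a2 and Slc3a1 stand out in KO arrays 1 and 2, and Slc7a8 is lowest in KO arrays 4 and 5. Slc38a6, Slc1a2 and Slc38a10 are below 0 in all 5 KO arrays, and Slc36a4 and Slc43a1 are above 0 in all 5.

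Some amino acid response genes were also highest in KO arrays 1 and 2, and others were not. Of 36 listed genes of the ATF4 and amino acid response 33 were measured, with 22 higher, 11 lower and a median log2 difference of 0.03. None passed the adjusted threshold, and 4 reached an unadjusted p under 0.05, all higher in KO, where 2.75% of all clusters did as higher. Asns, asparagine synthetase, read 4.92, 4.35 and 4.79 in WT and 7.75, 7.51, 5.29, 5.53 and 5.26 in KO. Cebpb, a transcription factor that binds with ATF4, read 6.44, 6.73 and 6.59 in WT and 7.79, 7.53, 6.95, 6.91 and 6.84 in KO. Both had no overlap between the groups, and both were highest in KO arrays 1 and 2. These 2 were the only genes of the 33 without overlap (6.06%, against 4.43% of all clusters). Atf4, named after its values were seen, was also highest in KO arrays 1 and 2, at 7.77 and 7.71 with the next array at 7.61. Ddit3 and Fgf21, named after their values were seen, were instead lowest in KO array 1, at 5.95 and 3.75. Atf3 had a log2 difference of 0.85 (SE 0.32) and Ddit4, an inhibitor of mTORC1 named after its values were seen, one of 0.68 (SE 0.3). Without KO arrays 1 and 2 the median of the list was 0.09. Only 1 gene, Asns (log2 difference 0.68), then reached the unadjusted level, against 5.98% of all clusters. The part of this response in Slc38a2 was not tested.

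**Figure D4:**
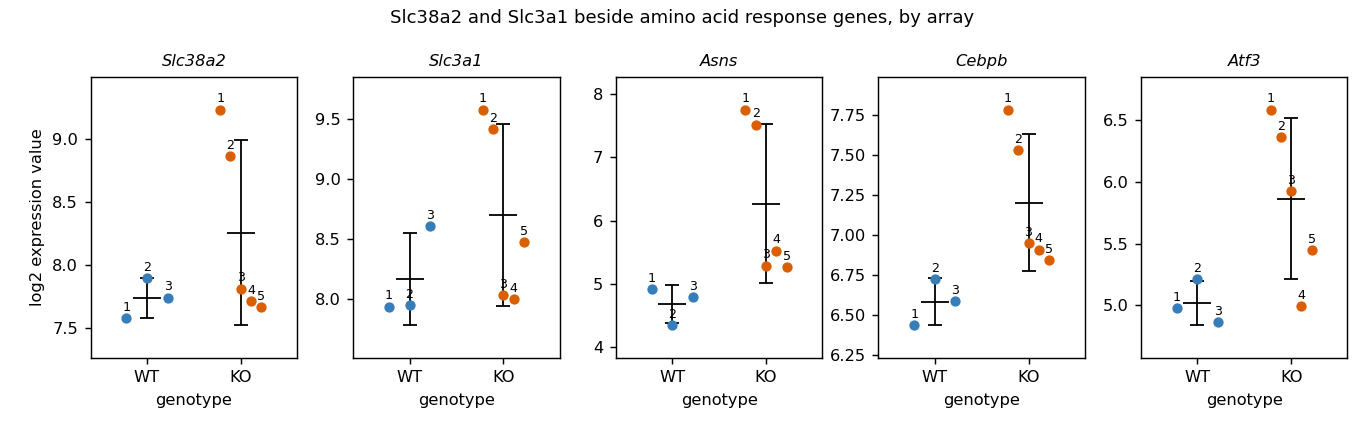
Log2 expression values (y axis, a separate range for each gene) of the carriers Slc38a2 and Slc3a1 and of Asns, Cebpb and Atf3 by genotype (x axis), 1 numbered point per array, with bars for the mean and SD of 3 WT and 5 KO arrays. KO arrays 1 and 2 are the highest 2 arrays in each panel.

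No Slc38a member passed the adjusted threshold, those described above included. Slc38a10 read 6.74, 6.81 and 6.55 in WT and 6.53, 6.61, 6.59, 6.40 and 6.44 in KO, a difference of -0.18 (SE 0.126), while its second and dimmer cluster gave 0.26 (SE 0.193). Slc38a9, the lysosomal arginine sensor upstream of mTORC1, and Slc38a7, a lysosomal glutamine exporter, had differences of 0.01 (95% interval -0.36 to 0.39) and -0.03 (95% interval -0.37 to 0.31). Slc38a1, a glutamine carrier known mainly from brain, was dim at 3.83, 3.53 and 3.89 in WT and 3.95, 2.85, 3.65, 3.47 and 3.23 in KO (-0.32, SE 0.227). Its protein-coding neighbour in the RefSeq order is Slc38a2, and the next gene is Slc38a4, so that 3 adjacent genes had differences of -0.32, 0.52 and 0.05. Slc38a8 read 2.58, 3.10 and 3.59 in WT and 2.56, 2.73, 2.51, 3.44 and 2.52 in KO (-0.34, SE 0.263), moving to -0.59 when WT array 1 was left out and to -0.09 when WT array 3 was. Slc38a11 read 1.94, 2.45 and 2.63 in WT and 2.44, 2.84, 2.76, 2.58 and 2.48 in KO (0.28, SE 0.178), or 0.08 without WT array 1 and 0.43 without WT array 3. Both are dim, and their groups overlap, as do those of the glutamine carrier Slc38a5 (0.13, SE 0.191).

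Slc38a9 acts with the machinery that reports amino acids to mTORC1, and 32 of 35 listed genes of that machinery were measured. Of these, 13 read higher and 19 lower, with a median log2 difference of -0.04. None passed the adjusted threshold. At an unadjusted p under 0.05 there were 3 (9.375%, against 6.08% of all clusters), the mTOR subunit gene Mlst8 (-0.43, SE 0.145), the GATOR subunit gene Depdc5 (-0.35, SE 0.145) and Flcn, a regulator of Rag GTPases (0.50, SE 0.2). The groups did not overlap for 4 of the 32 (12.5%, against 4.43% of all clusters), with Mlst8, Rptor and Mios below WT and Lamtor3 above it.

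Slc3a2, the heavy chain for most exchangers of large neutral amino acids, read 7.54, 7.82 and 7.54 in WT and 7.80, 7.45, 7.41, 7.49 and 7.89 in KO. The groups overlapped throughout, with a difference of -0.03 (95% interval -0.37 to 0.32). Its light chains varied more. Slc7a8, an exchanger of neutral amino acids, read 5.53, 5.44 and 5.87 in WT and 6.09, 5.88, 5.78, 5.04 and 4.84 in KO. KO arrays 4 and 5 were its lowest and KO array 1 its highest, and the difference was -0.09 (SE 0.28) with all arrays and -0.39 without KO arrays 1 and 2. The KO SD of Slc7a8, 0.549, was reached by 4.61% of single-symbol clusters.

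Among the dim light chains, Slc7a7 had the smallest p of any member higher in KO. It encodes an exchanger of cationic for neutral amino acids that is also known from macrophages. Slc7a7 read 4.23, 3.41 and 4.28 in WT and 4.39, 4.05, 4.91, 4.39 and 4.97 in KO. WT array 2 was the lowest, and KO array 2 lay below the other two WT arrays. The log2 difference was 0.57 (95% interval -0.01 to 1.14, limma adjusted p = 0.828), 0.29 without WT array 2, 0.72 without WT array 3 and 0.78 without KO arrays 1 and 2. All 8 macrophage markers were measured, with 6 higher and 2 lower and 0 at an unadjusted p under 0.05. Their summed signal, on the log2 scale, ran from 9.41 to 9.92 in WT and from 9.35 to 10.39 in KO. The mean of those markers was 6.06 in WT array 2 against 6.499 and 6.55 in the other WT arrays, and 7.01, 6.69, 7.10, 5.94 and 6.27 in KO arrays 1 to 5. WT array 2 was the lowest WT array for both Slc7a7 and the markers, and KO array 3 was high for both. KO array 5, the highest for Slc7a7, was not among the highest for the markers. KO arrays 1 and 4 had equal Slc7a7 values with unlike marker means. The part of macrophages in the Slc7a7 values was not tested.

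Slc7a5, the light chain of the leucine exchanger LAT1, read 3.65, 3.90 and 3.99 in WT and 3.76, 3.87, 4.13, 4.36 and 4.27 in KO. KO arrays 3 to 5 lay above all WT arrays and KO arrays 1 and 2 among them, so its order differs from that of Slc38a2. The difference was 0.23 (SE 0.17), and 0.40 without KO arrays 1 and 2 (limma adjusted p = 0.818). Slc7a6, another cationic and neutral exchanger, read 3.49, 3.62 and 3.09 in WT and 3.79, 2.95, 3.55, 3.43 and 3.31 in KO (0.01, SE 0.198). Slc7a10, a light chain for small neutral amino acids, had a difference of 0.06 (SE 0.258).

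Slc7a2 is the main cationic amino acid transporter of the liver and brings in arginine and lysine. It read 9.57, 9.5 and 9.37 in WT and 9.97, 10.004, 9.89, 9.43 and 9.05 in KO. KO arrays 1 to 3 lay above WT, KO array 4 among the WT arrays and KO array 5 below them. The difference was 0.19 (95% interval -0.30 to 0.68) and -0.02 without KO arrays 1 and 2. Slc7a1, the widely expressed arginine carrier, was dim at 2.99, 2.72 and 2.68 in WT and 3.55, 3.04, 3.08, 2.45 and 3.31 in KO (0.29, SE 0.222). Slc7a3, a related carrier known from brain, was dim too, at 1.65, 2.07 and 1.73 in WT and 2.41, 2.31, 2.01, 2.23 and 1.83 in KO (0.34, SE 0.17). Slc7a12 read 2.00, 1.90 and 1.73 in WT and 1.76, 1.63, 1.58, 1.58 and 1.67 in KO (-0.23, SE 0.124). At such signals a difference is not shown to be one of transcript.

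Within the Slc36a family, Slc36a4, which responds to low concentrations of proline and tryptophan, read 7.28, 7.16 and 7.17 in WT and 7.72, 7.54, 7.40, 7.24 and 7.38 in KO. Only KO array 4 reached into the WT range. The difference was 0.25 (95% interval -0.05 to 0.56, limma adjusted p = 0.848), 0.14 without KO arrays 1 and 2, and 0.25 (SE 0.203) in its second cluster. Slc36a1, a lysosomal and intestinal carrier of small amino acids, had a difference of -0.09 (SE 0.177). In the RefSeq order Slc36a2 lies between Slc36a1 and Slc36a3. Slc36a3 was dim at 2.17, 1.59 and 1.96 in WT and 2.52, 2.13, 2.09, 2.36 and 2.09 in KO, with WT array 1 among the KO arrays (0.33, SE 0.169), or 0.17 without WT array 2 and 0.46 without WT array 1. Slc36a2, a proline and glycine carrier known from kidney, was dim too (0.21, SE 0.238).

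In the Slc43a family, Slc43a1, a carrier of large neutral amino acids known as LAT3, read 5.23, 5.31 and 5.56 in WT and 5.80, 5.42, 5.54, 5.40 and 6.00 in KO. KO arrays 1 and 5 lay above the WT arrays and the other three among them (0.26, SE 0.171). Slc43a3, the nucleobase carrier, read 8.16, 8.21 and 8.20 in WT and 7.97, 8.04, 8.50, 8.63 and 8.19 in KO. Its WT arrays were nearly level, with KO arrays 1 and 2 below them and KO arrays 3 and 4 above them, and the difference was 0.07 (95% interval -0.31 to 0.45). Slc43a2 had a difference of 0.04 (SE 0.144).

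The 16 genes for which values in every array are not given had differences between -0.22 and 0.36, with 10 higher and 6 lower and a smallest adjusted p of 0.892. They include Slc7a6os (-0.10, SE 0.134) and Slc36a1os (0.17, SE 0.158).

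Amino acid carriers of other families were read in the same way. Of 24 listed genes, mainly of the sodium- and chloride-coupled Slc6a family, 21 were measured, with 10 higher, 11 lower and a median log2 difference of -0.06. None passed the adjusted threshold, and 1 reached an unadjusted p under 0.05 (4.76%, against 6.08% of all clusters). The groups did not overlap for 3 (14.3%, against 4.43% of all clusters), Slc6a15 above WT and Slc6a20a and Slc6a20b below it. The gene with the smallest p was Slc6a20a, a proline carrier, which read 3.02, 3.15 and 3.15 in WT and 2.31, 2.79, 2.16, 2.62 and 2.24 in KO (-0.68, SE 0.167), all near the array medians. Slc15a4, a lysosomal carrier of histidine and small peptides, had a difference of 0.29 (SE 0.145) and Slc6a18 one of 0.27 (SE 0.16).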

How the data were processed

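Groups and replicate numbers of the 8 liver arrays come from the sample titles. The labels do not list the animals, so each p-value reflects only how far these samples spread, which may be technical. The authors deposited normalized expression values on the log2 scale (range 0.409 to 13.27). Per the submitters' processing notes, the tools include RMA and oligo, and the design text names Expression Console. The sources used here do not say which of them made the values, or with which version and settings.

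Clusters were named through the platform annotation. Of 41345 clusters, 23521 have 1 symbol, 1814 have several and 16010 are not listed. The 43 members (46 clusters; for each gene the cluster with the highest mean) all matched RefSeq by Entrez ID, and 0 symbols changed. KO minus WT was fitted with limma 3.58.1 in R 4.3.3 (lmFit, eBayes, no covariates, 6 residual degrees of freedom), as a two-sided test, and p-values were adjusted over the 23521 clusters by Benjamini-Hochberg. The fit was tested on simulated data. Single genes were also tested by exact permutation over 56 splits, with no adjustment over members. The number of arrays limits the precision.

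Values in every array are given for the 8 members with the smallest p in each direction, the 8 with the highest mean, the highest of each family, and fixed heavy chains, light chains and liver carriers (27 in all). From each of 5 pathway lists the 3 genes with the smallest p are named. The members and lists were chosen with earlier results of these data known. The alternatives changed the shrinkage, filter, normalization, array weights, arrays, replicate block and cluster per gene. No slide or scan batch is given in the sources used here.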

Additional observations from a re-analysis of the deposited data

Results flagged for a closer look

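In 44 sets of 5 KO values, those of the 43 members and Abhd15, 4 (9.09%) held an array far from its group by Dixon's criterion, where chance gives about 5%. Slc1a2 in KO array 2 read 6.65 (6.645), against 6.38 for the next KO array. Slc38a8 read 3.44 (3.435) in KO array 4, with the next at 2.73. For Slc36a2, KO array 3 was at 4.01 (4.008) and the next at 3.21. Slc7a13 in KO array 1 was lowest at 1.63, below 1.79 in the next array. The last 3 genes are dim, with means near or below the array medians.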

How the results depend on the processing

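The alternatives changed the variance shrinkage, the clusters tested, the normalization, the arrays and the cluster that stands for a gene. In every alternative run, 0 of the 43 genes passed the adjusted threshold, and the smallest adjusted p of a gene described by array was 0.434. Over all clusters the count of 0 became 3 with trend and robust shrinkage, 3 with every cluster tested, 1 among clusters with a mean of at least 5, and 1 with the replicate block. The median difference of the members lay between 0.01 and 0.09 throughout. Single omissions gave 2 to 5 members at an unadjusted p under 0.05 in place of 2, the most without KO array 4 (5, against 6.12% of all clusters). Without WT array 1 or WT array 3 there were 4 each (9.30%, against 5.43 and 5.23% of all clusters). The count was 4 without KO arrays 1 and 2 (against 5.98% of all clusters) and 6 with the replicate block (13.95% of the members, against 7.73%). Same-numbered arrays deviated from their group means with correlations of -0.0477 to 0.0212 (3 pairs), and arrays of unlike number with -0.0531 to 0.0528 (12 pairs). With so few pairs, and with the group means taken out, these correlations cannot settle whether same-numbered arrays share more than a number. Members without overlap numbered 2 to 8 under single omissions, most without WT array 3 (8, or 18.6%, against 10.3% of all clusters). They numbered 4 (9.30%) without WT array 1 (against 10.5% of all clusters), WT array 2 (against 9.89%) or KO array 2 (against 6.76%). With quantile normalization they numbered 4 (9.30%, against 4.42% of all clusters), and without KO arrays 1 and 2 they numbered 6 (against 11.6%). Fewer arrays make such gaps more frequent. For Abhd15, leaving out KO arrays 1 and 2 gave -0.50, where the smallest exact p that can be had, 0.1, was reached. Of 27 genes, 19 kept their sign. The sign turned for Slc3a2 with quantile normalization (0.0075) and without WT array 2 or KO arrays 2, 3 or 4 (single omissions -0.0965 to 0.0673), and for Slc7a6 without WT array 3 or KO arrays 1 or 3 (-0.146 to 0.121). It turned for Slc1a5 without WT array 1 or KO arrays 1 or 5 (-0.0785 to 0.265) and with the block (-0.121), for Slc7a8 without WT array 3 or KO arrays 4 or 5 (-0.228 to 0.0823) and with the block (0.302), and for Slc43a3 without KO array 4 (-0.0182 to 0.146) and with the block (-0.0237). It also turned for Slc38a10 as the mean of its clusters (0.0371), and for Slc38a2 (-0.00833) and Slc7a2 (-0.022) without KO arrays 1 and 2. The cause was not tested. Overlap counts were not made for the shrinkage, array weight, block and every-cluster settings. Dim signal limits 26 of the 43 genes.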
